A study of Sus scrofa with 8 samples.

Results

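Heat shock proteins and their helpers fold new proteins, hold damaged ones and pass clients such as steroid receptors from one machine to the next. The genes described here are 9 classical members of this system, chosen by name and taken wherever a probe set of the Affymetrix porcine array carries exactly 1 of the 9 symbols. They are HSPB1, CRYAB, HSPA8, HSPH1, DNAJA1, HSP90AA1, HSP90AB1, HSPD1 and HSPE1, measured by 18 probe sets, out of 6765 genes that have a probe set with a single symbol. Of the 18 probe sets, 17 were bright enough to be tested, at least 1 for each gene; the other was the dimmer of the CRYAB pair, at 50.7 to 149 in KNP and 19.2 to 111 in YS. Most of the proteins act in the cytosol, whereas HSPD1 and HSPE1 are made from nuclear genes and work as the chaperonin of the mitochondrial matrix, so the name cytosolic holds only for the other genes.

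Liver RNA came from 4 Korean native pigs (KNP), an indigenous breed, aged 7 months, and from 4 Yorkshire pigs (YS), a commercial breed, aged 6 months, with 1 array per animal and no treatment named. The labels state that all were kept alike and that the sampled piece was the tip of the liver's largest lobe, and the study asks which liver genes differ between the breeds. Breed and age, and any hybridization batch that followed breed, cannot be told apart here. A value is a deposited intensity on a linear scale, and a difference is KNP minus YS in log2(intensity + 16), tested over all 14399 probe sets bright enough to enter, with a call at an adjusted p under 0.05.

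Cells make these proteins all the time, and many of the genes are induced further by heat, oxidants and other causes of protein damage through the transcription factor HSF1. Small heat shock proteins (HSPB1, CRYAB) bind unfolding proteins without using ATP. The HSP70 machine (HSPA8) folds with ATP, is fed by J-domain proteins (DNAJA1) and is reset by exchange factors (HSPH1), and HSP90 (HSP90AA1, HSP90AB1) finishes signalling proteins. In the liver, which makes most plasma proteins, the constitutive forms are abundant.

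None of the 9 genes passed the test, at 0 higher and 0 lower by the brightest probe set of each, where 1.03% of all probe sets tested were called (0.424% higher and 0.611% lower), or 1.36% of genes by their brightest probe set. At an unadjusted p under 0.05 in limma, 1 of the 9 genes (HSPB1) and 3 of the 17 probe sets passed, where 15.1% of all probe sets did. Of the 17 probe sets, 3 did not overlap between the breeds, 2 of them higher in KNP (HSPB1 and 1 of HSP90AA1) and 1 lower (DNAJA1), where 9.68% of all probe sets did not overlap, 4.01% higher and 5.67% lower. The gene nearest to a call was HSPB1, higher in KNP without overlap of the breeds, followed by CRYAB, with 1 KNP pig far above the rest. By the brightest probe set, HSPA8, HSPH1 and DNAJA1 varied more between pigs of one breed than between the breeds. HSPD1 and HSPE1 lay slightly lower in KNP on the deposited scale, with a difference that turned in sign after quantile normalization. Over the 9 genes by the brightest probe set, 3 had a positive and 6 a negative difference, with a median of -0.25 (0.065 after quantile normalization). Over the 17 tested probe sets the median was -0.035, beside -0.0086 over all probe sets tested.

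**Figure D1:**
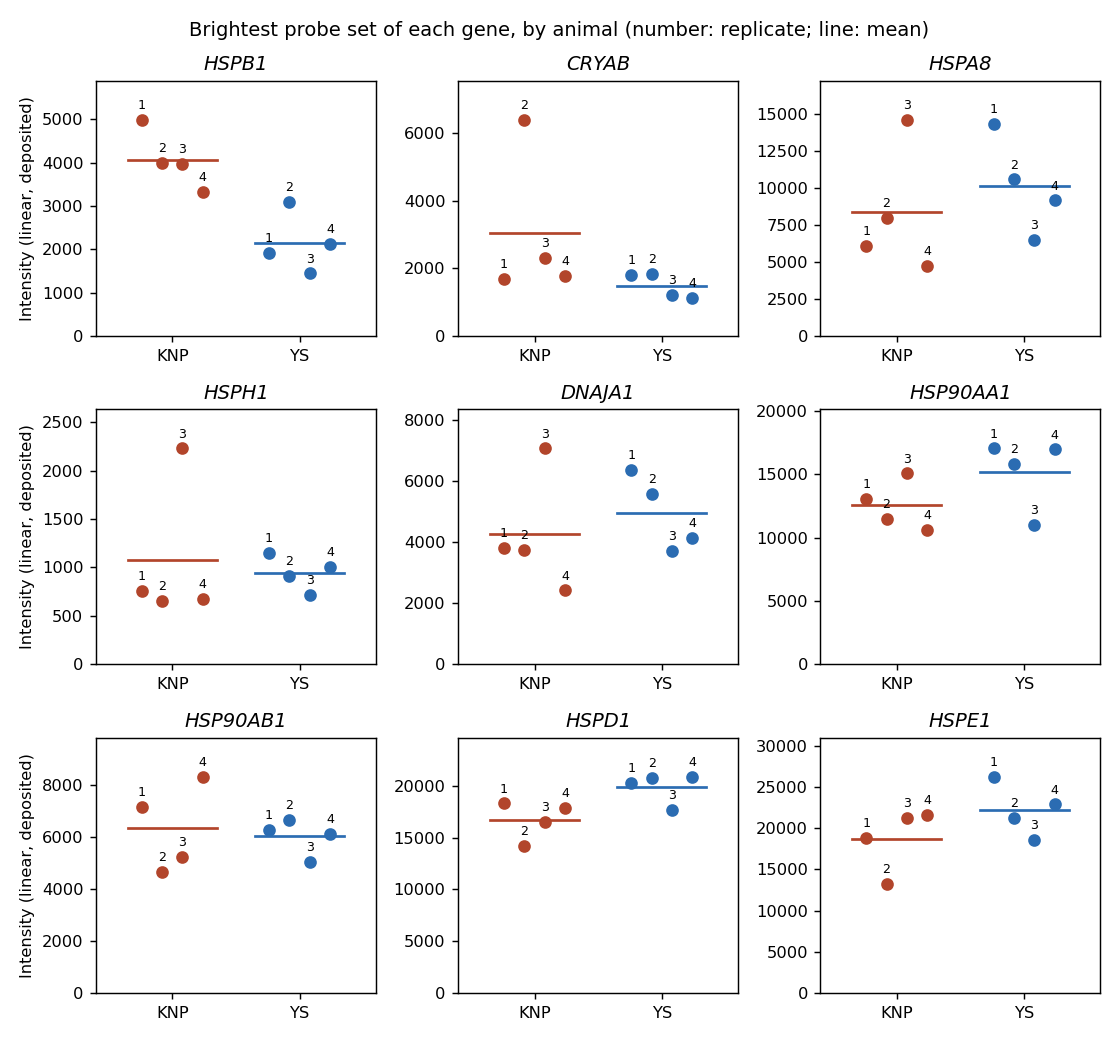
Deposited intensity (linear, from 0) of the brightest probe set of each of the 9 genes in the 4 KNP and 4 YS pigs; each point is an animal, its number the replicate, and the line the mean of the breed. HSPB1 separates the breeds, with 3316 to 4984 in KNP and 1445 to 3098 in YS, while a single KNP pig stands high in CRYAB (replicate 2) and in HSPH1 (replicate 3).

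HSPB1 (HSP27) is the small heat shock protein that guards actin filaments and holds unfolding proteins. Its intensity was 4984, 3999, 3970 and 3316 in the KNP pigs, against 1921, 3098, 1445 and 2131 in the YS pigs. Every KNP pig lay above every YS pig, the lowest KNP and the highest YS value being close neighbours. The means were 4067 ± 688 in KNP and 2149 ± 695 in YS (SD, n = 4 per breed), a log2 difference of 0.95 (SE 0.22, 95% interval 0.46 to 1.44 before adjustment), or 1.94-fold. With an adjusted p of 0.0778 (limma) it stayed above the threshold. The difference was 0.94 after quantile normalization and lay between 0.78 and 1.15 with each pig left out in turn, and its adjusted p ran from 0.0634 to 0.189 over all alternatives, none of which called it. Of the 9 genes it was the 1 without overlap by the brightest probe set, where 11% of genes show none.

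CRYAB, alpha-B crystallin, is a small heat shock protein of lens and muscle that also occurs in other tissues under stress. Its brighter probe set showed 1691, 6398, 2323 and 1777 in KNP and 1811, 1826, 1216 and 1119 in YS. KNP replicates 2 and 3 lay above every YS pig, and KNP replicates 1 and 4 lay within the YS range. The log2 difference was 0.82 (SE 0.38, interval -0.0041 to 1.65, adjusted p = 0.333), and it was 0.39 without KNP replicate 2. The dimmer probe set was also highest in that pig, at 149, against 50.7 to 89.7 in the other KNP pigs and 19.2 to 111 in YS.

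In the pig assembly Sscrofa11.1 CRYAB lies next to HSPB2, another small heat shock protein, whose probe set shares the stem of its identifier with the dimmer one of CRYAB. HSPB2 read 994, 2007, 1501 and 1079 in KNP and 1078, 1735, 874 and 874 in YS, so it too was highest in KNP replicate 2, with a breed difference of 0.29 (adjusted p = 0.655). HSPB2 was singled out after its values were seen. FKBP5, an HSP90 partner that limits the glucocorticoid receptor and is induced by glucocorticoids, and BAG3, an exchange factor that works with small heat shock proteins, were singled out in the same way. FKBP5 stood at 3567 in KNP replicate 2, against 650 to 1586 in the other KNP pigs and 824 to 1589 in YS. BAG3 read 4300 in that pig, but 3742 and 2255 in YS replicates 1 and 3 as well, where CRYAB was not high.

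Small heat shock proteins are abundant in muscle, and bulk liver RNA cannot tell more cells of a type from more RNA per cell. The marker list of smooth muscle and stellate cells (8 of 11 genes on the array) had a summed intensity of 4480 to 10176 in KNP and 6425 to 9697 in YS. Its highest sum, 10176, was in KNP replicate 2, the pig with the highest CRYAB. Its lowest, 4480, was in KNP replicate 3, where CRYAB read 2323. YS replicate 4 had a sum of 9697 with the lowest CRYAB of the 8 pigs, 1119. The 8 genes of this list had a median difference of -0.013 with 0 called. ACTA2 and PDGFRB, the brightest of them, showed -0.60 and 0.051 (adjusted p of 0.546 and 0.945). None of the 5 skeletal muscle markers on the array was bright enough to be tested, and their sum was 101 to 208 in KNP and 210 to 280 in YS. Only CKM among them did not overlap, at 16.6 to 64.1 in KNP and 66.8 to 226 in YS. TNNT3 and MYL1 had the higher mean in KNP, and MYH2 and TNNC2 in YS. The cholangiocyte list (6 of 8 genes, of which KRT19, SOX9 and CFTR did not pass the brightness filter) summed to 1662 to 3288 in KNP and 1616 to 1866 in YS. KNP replicate 1 had the highest sum, the highest HSPB1 and the highest SPP1. SPP1 read 1777 in that pig, against 377 to 696 in the other KNP pigs and 349 to 809 in YS. KNP replicate 3 had a sum of 2353 with an SPP1 of 377. CLDN4, the brightest of the list, was highest in KNP replicate 3 (1681), and EPCAM in KNP replicate 2 (468). SPP1 and CLDN4 showed breed differences of 0.38 and 0.044 (adjusted p of 0.720 and 0.966). What part these cells have in HSPB1 and CRYAB was not tested.

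HSPA8 (HSC70) is the constitutive cytosolic HSP70, which folds nascent chains and uncoats clathrin vesicles. Its brightest probe set read 6101, 7969, 14596 and 4747 in KNP and 14327, 10580, 6479 and 9157 in YS. The breeds overlapped over most of their range, since the highest and the lowest of all 8 values were both KNP pigs. The difference was -0.35 (SE 0.33, interval -1.07 to 0.37, adjusted p = 0.651), and it moved to -0.67 without KNP replicate 3 and to -0.13 without KNP replicate 4. The 3 dimmer probe sets of HSPA8, at 106 to 367 in KNP and 119 to 344 in YS, showed -0.024, -0.035 and -0.19, with adjusted p from 0.782 to 0.981.

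HSPH1 (HSP105) is an HSP110 protein that resets HSPA8 by releasing its ADP. It read 758, 658, 2228 and 680 in KNP and 1154, 910, 719 and 1009 in YS. KNP replicate 3 stood far above the other 7 pigs, and the other KNP pigs lay below all YS pigs but the lowest. The breed difference was near 0, at -0.00076 (SE 0.35, interval -0.77 to 0.77, adjusted p = 0.999), and -0.41 without KNP replicate 3.

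DNAJA1 (HDJ2) is a J-domain protein that brings clients to HSPA8 and starts its ATP hydrolysis. The brighter probe set read 3812, 3747, 7081 and 2426 in KNP and 6389, 5575, 3726 and 4134 in YS, with a difference of -0.29 (SE 0.29, adjusted p = 0.682), which was -0.57 without KNP replicate 3 and -0.055 without KNP replicate 4. The dimmer one read 448, 294, 460 and 549 in KNP and 639, 565, 574 and 897 in YS. It did not overlap between the breeds, at -0.60 (SE 0.22, adjusted p = 0.240), and did not share the high value of KNP replicate 3. Both probe sets of DNAJA1 had a negative difference, but they ranked the pigs differently, and the transcripts that each detects were not determined.

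By their brightest probe sets, HSPA8, HSPH1 and DNAJA1 were all highest in KNP replicate 3 among the 8 pigs, all highest in YS replicate 1 within YS, and all lowest in YS replicate 3 within YS. Their lowest KNP pig was not the same, being replicate 4 for HSPA8 and DNAJA1 and replicate 2 for HSPH1. The dimmer HSPA8 probe sets did not all share the order, 1 being highest in YS replicate 4 (261) and 1 in YS replicate 1 (277). DNAJA2, DNAJB1 and HSPA4, related genes looked up after their values were seen, were highest in YS replicate 2. Of the 4 tested HSP70 and HSP110 relatives, 2 were highest in KNP replicate 3 and 2 in YS replicate 2. Of the 15 other J-domain proteins tested, 5 were highest in each of these pigs. Of all probe sets tested, 13.9% were highest in KNP replicate 3 and 9.3% in YS replicate 2. The brightest probe set of HSP90AA1, whose protein receives clients from HSPA8, was highest in KNP replicate 3 within KNP, and highest in YS replicate 1 and lowest in YS replicate 3 within YS. Its next probe set was instead lowest in YS replicate 1 within YS (4786). Between pigs of a breed, the SD of HSPA8, CRYAB and HSPH1 (log2 scale) was 0.59, 0.68 and 0.62, and 10.6%, 7.1% and 9.35% of all probe sets tested had a larger one. At the other end HSPD1 had an SD of 0.14, and 94.6% of probe sets had a larger one.

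HSP90AA1 is the inducible form of cytosolic HSP90 and had 5 probe sets. The brightest read 13026, 11463, 15065 and 10630 in KNP and 17032, 15807, 10995 and 16945 in YS. The difference was -0.27 (SE 0.17, interval -0.64 to 0.11, adjusted p = 0.502), which shrank to -0.041 after quantile normalization and was 0.16 for the mean of all its probe sets. The next in brightness showed -0.13, and the other 3 were higher in the mean of KNP, at 0.40, 0.47 and 0.34, with adjusted p from 0.287 to 0.579. The third in brightness did not overlap, at 2226, 2326, 2330 and 2363 in KNP and 1977, 1794, 1303 and 2028 in YS. The 5 probe sets had no common direction, and none was called.

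HSP90AB1, the constitutive form, read 7184, 4671, 5258 and 8331 in KNP and 6284, 6686, 5066 and 6115 in YS with its only probe set. The YS values lay inside the range of KNP, and the difference was 0.044 (SE 0.19, interval -0.38 to 0.47, adjusted p = 0.939). Unlike the inducible form, it was highest in KNP replicate 4 and lowest in KNP replicate 2.

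HSPD1 (HSP60) forms the mitochondrial folding chamber and HSPE1 (HSP10) its lid, and the genes are neighbours in Sscrofa11.1. HSPD1 read 18311, 14172, 16548 and 17893 in KNP and 20273, 20768, 17707 and 20877 in YS. Only YS replicate 3 lay within the KNP range, and the difference was -0.25 (SE 0.12, interval -0.53 to 0.020, adjusted p = 0.365). HSPE1 read 18790, 13215, 21308 and 21593 in KNP and 26258, 21301, 18612 and 22906 in YS, with more overlap and a difference of -0.27 (SE 0.17, adjusted p = 0.512). Both genes were lowest in KNP replicate 2 among the 8 pigs and lowest in YS replicate 3 within YS, and without KNP replicate 2 HSPE1 showed -0.11.

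**Figure D2:**
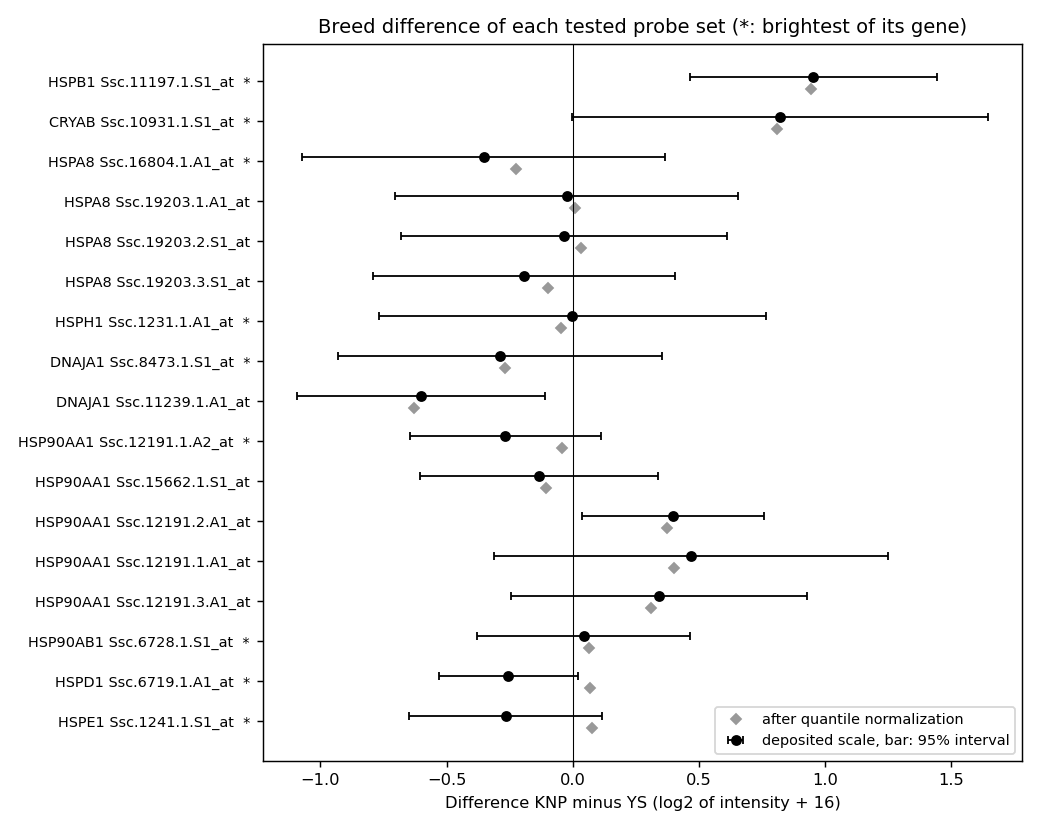
Difference KNP minus YS in log2(intensity + 16) for the 17 tested probe sets of the 9 genes, an asterisk marking the brightest of each gene; black points with bars give the difference on the deposited scale with its 95% interval before adjustment, grey diamonds the difference after quantile normalization. The intervals of HSPB1, 1 HSP90AA1 probe set and the dimmer DNAJA1 probe set leave out 0, none was called after adjustment, and HSPD1 and HSPE1 change sign with quantile normalization.

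Over the whole array the difference varied with brightness, whose part in the differences of the bright genes was not tested. In the band at 14 to 15 (mean on the log2 scale), where HSPD1 and HSPE1 lie, all tested probe sets had a median difference of -0.39, and in the band at 13 to 14, with HSPA8 and the brightest HSP90AA1 probe set, -0.22. After quantile normalization HSPD1 showed 0.071 and HSPE1 0.078 (adjusted p of 0.818 and 0.870), and HSPA8 -0.23. HSPB1 and CRYAB lie where the medians were -0.0030 and 0.037, and kept 0.94 and 0.81. Highest intensities of 50730 to 60066 on KNP arrays and 83646 to 95919 on YS arrays, and array medians of 153 to 170 in KNP and 154 to 180 in YS, were measured on the same arrays.

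**Figure D3:**
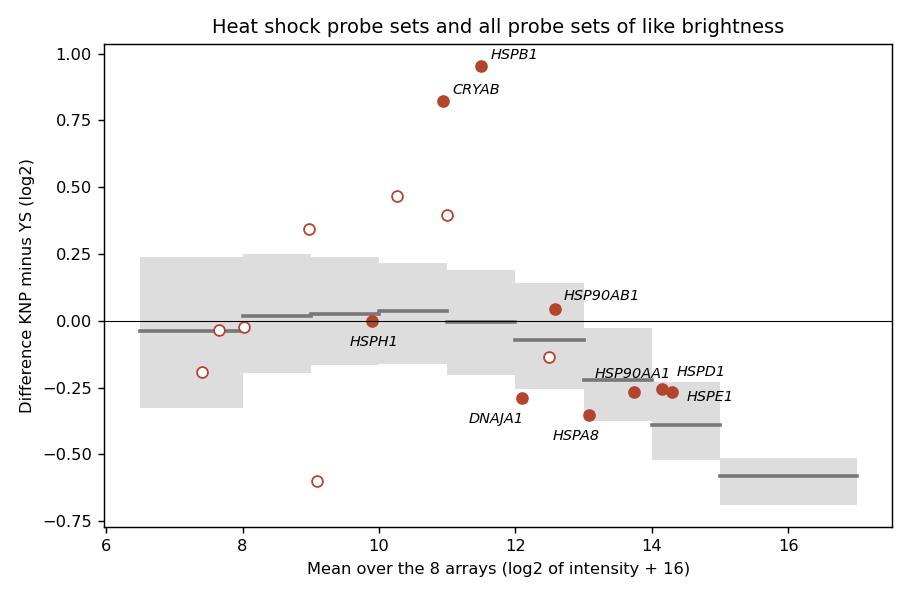
Difference KNP minus YS (log2) against the mean over the 8 arrays (log2 of intensity + 16); filled points are the brightest probe set of each of the 9 genes, open points the other tested ones, grey lines and bands the median and quartiles of all tested probe sets in each brightness band. HSPD1 and HSPE1 lie at -0.25 and -0.27 in a band with a median of -0.39, and HSPB1 at 0.95 lies above the upper quartile of its band, 0.19.

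RNA and array controls also differed between the breeds. For actin, the signal of the 3' control over that of the 5' control, a measure that is larger for shortened RNA, was 2.69 to 6.45 in KNP and 8.39 to 11.8 in YS (p = 0.0286 by a two-sided exact permutation test with n = 4 pigs a breed, the smallest that this size allows). The GAPDH ratio was 2.30 to 3.77 in KNP and 3.07 to 4.05 in YS (p = 0.314 by the same exact test). Labelled spikes had a geometric mean of 3286 to 4833 on KNP arrays and 6499 to 8785 on YS arrays (p = 0.0286 by the same exact test). Their part in the differences of HSPB1 and of the probe sets that disagree within HSP90AA1 and DNAJA1 was not tested. All 11 hepatocyte markers were detected above the filter, ALB being the brightest at 50730 to 58503 in KNP and 83646 to 95919 in YS. Of these 11, 8 were called lower in KNP, with a median of -0.60 that was -0.028 after quantile normalization, where the smallest adjusted p of the list was 0.267 (AHSG) and none was called.

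The rest of the chaperone network was read from 8 lists of 130 other genes, of which 85 had a probe set with 1 symbol and 80 were tested. By the brightest probe set of each gene, none was called higher and none lower, 8 had an unadjusted p under 0.05 and 6 did not overlap. Of all probe sets, 15.1% and 9.68% did so, and 11% of genes did not overlap by their brightest probe set. Other small heat shock proteins (5 tested, median -0.27) held HSPB11, a protein of intraflagellar transport despite its name, at 244 ± 36.0 in KNP and 126 ± 47.6 in YS (log2 0.92, adjusted p = 0.122), and the muscle protein HSPB7 at -0.58 (adjusted p = 0.333). The 4 tested HSP70 and HSP110 relatives had a median of 0.15, with HSPA14, a ribosome-bound HSP70, at 0.56 and HSPA4, an HSP110 exchange factor, at 0.079 (adjusted p of 0.444 and 0.878). HSPA14 showed 0.27 without YS replicate 3, and HSPA4 turned to -0.068 without YS replicate 4. The 15 J-domain proteins had a median of 0.00020, with DNAJC8 at -0.31 and DNAJA2, a close relative of DNAJA1, at -0.25 (adjusted p of 0.423 and 0.554), the second being -0.13 without YS replicate 2.

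Among 20 cochaperones (median 0.12), the HSP70 exchange factor BAG5 lay at 120 ± 20.2 in KNP and 204 ± 4.56 in YS, without overlap (difference -0.70, SE 0.21, adjusted p = 0.136), and BAG6, which guards membrane proteins in the cytosol, showed 0.54 (adjusted p = 0.288). Of 11 subunits of the cytosolic chaperonin TRiC and of prefoldin, which fold actin and tubulin, 10 had a negative difference, with a median of -0.13. CCT4 lay at 3596 ± 542 in KNP and 4350 ± 200 in YS without overlap (difference -0.29, adjusted p = 0.387, and -0.17 without KNP replicate 4), and PFDN5 showed 0.28 (adjusted p = 0.421).

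Of 7 other mitochondrial chaperones and proteases (median 0.057), TRAP1, the HSP90 of mitochondria, lay at 1171 ± 33.5 in KNP and 1618 ± 227 in YS without overlap (difference -0.45, SE 0.15, adjusted p = 0.175). A second, dimmer TRAP1 probe set had the opposite sign (0.27, adjusted p = 0.840), and the mean of its probe sets showed -0.090 (adjusted p = 0.898). The protease LONP1 averaged 1414 ± 80.2 in KNP, against 1066 ± 222 in YS (difference 0.42, adjusted p = 0.282). Of 4 heat shock factors and their binders, HSF1 itself showed 0.31 (adjusted p = 0.668), which lay between 0.12 (without YS replicate 1) and 0.51 (without YS replicate 4) with a pig left out. A dimmer HSF1 probe set fell below the brightness filter and was not tested. It read 47.0 to 127 in KNP and 14.2 to 29.4 in YS, without overlap. HSF2BP, named for binding HSF2, averaged 1214 ± 244 in KNP, against 791 ± 89.9 in YS without overlap (difference 0.59, adjusted p = 0.143).

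Of 14 chaperones of the endoplasmic reticulum (median 0.098), PDIA3, a disulfide isomerase for glycoproteins, came nearest to a call. It read 9705, 9057, 14856 and 7867 in KNP and 4964, 6300, 4878 and 5590 in YS, so that every KNP pig was above every YS pig (log2 0.90, SE 0.19, adjusted p = 0.0590). Its other tested probe sets showed 1.95 without overlap and 0.44 with overlap (adjusted p of 0.0558 and 0.373). With array weights and without KNP replicate 4 the brightest passed, with an adjusted p of 0.0367 and 0.0489. SDF2L1, a partner of the chaperone HSPA5, showed 0.80 (adjusted p = 0.542), and 0.12 without KNP replicate 3. It read 4322 in KNP replicate 3, against 579 to 700 in the other KNP pigs and 360 to 830 in YS.

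**Figure D4:**
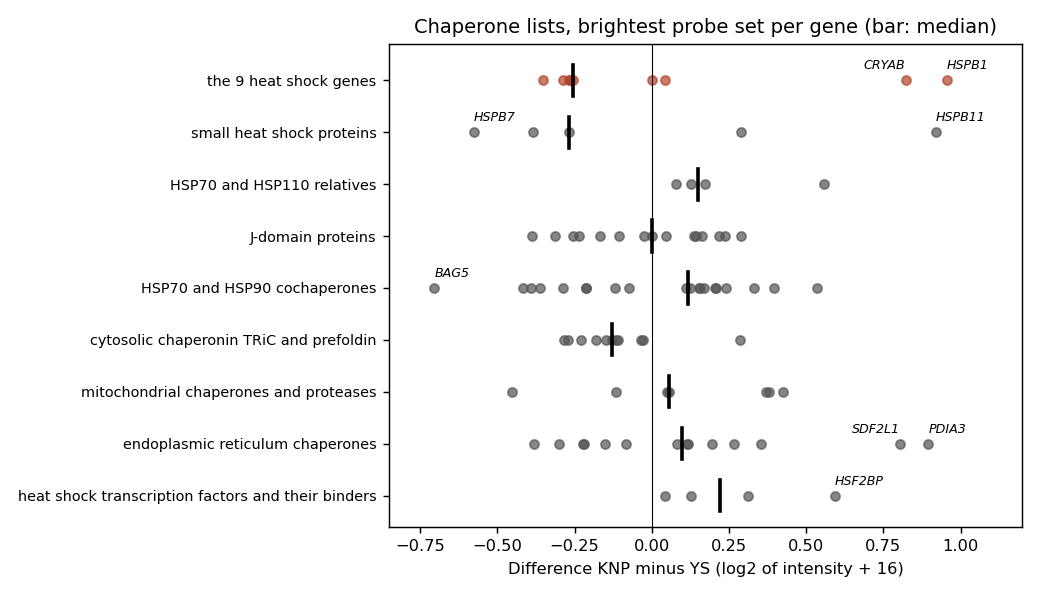
Difference KNP minus YS in log2(intensity + 16) of every tested gene of the 9 heat shock genes and of 8 other chaperone lists, by the brightest probe set; each point is a gene and the black bar the median of the list. No gene passed the test, and HSPB1 (0.95), HSPB11 (0.92) and PDIA3 (0.90) have the largest positive differences.

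KNP replicate 3, in which the brightest probe sets of HSPA8, HSPH1 and DNAJA1 were highest, was also the highest of the 8 pigs in 12 of the 14 endoplasmic reticulum chaperones, a share of 85.7% where it was highest in 13.9% of all probe sets tested. HYOU1, the HSP110 of this compartment and so a relative of HSPH1, read 3445 in that pig, against 632 to 830 in the other KNP pigs and 834 to 1230 in YS. HSPA5, its HSP70, read 25403 there, against 8156 to 14960 in the other KNP pigs and 13518 to 23250 in YS. HYOU1, HSPA5 and this count were singled out after their values were seen. KNP replicate 2, the pig with the high CRYAB, was the lowest of the 8 in 4 of the 9 genes (HSPH1, HSP90AB1, HSPD1 and HSPE1) and in 7 of the 14 endoplasmic reticulum chaperones, where it was lowest in 16.7% of all probe sets tested. KNP replicate 4 was lowest in 3 of the 9 genes and in 7 of the 11 TRiC and prefoldin genes, where it was lowest in 10.6% of all probe sets tested. The counts for these pigs were also singled out after their values were seen.

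**Figure D5:**
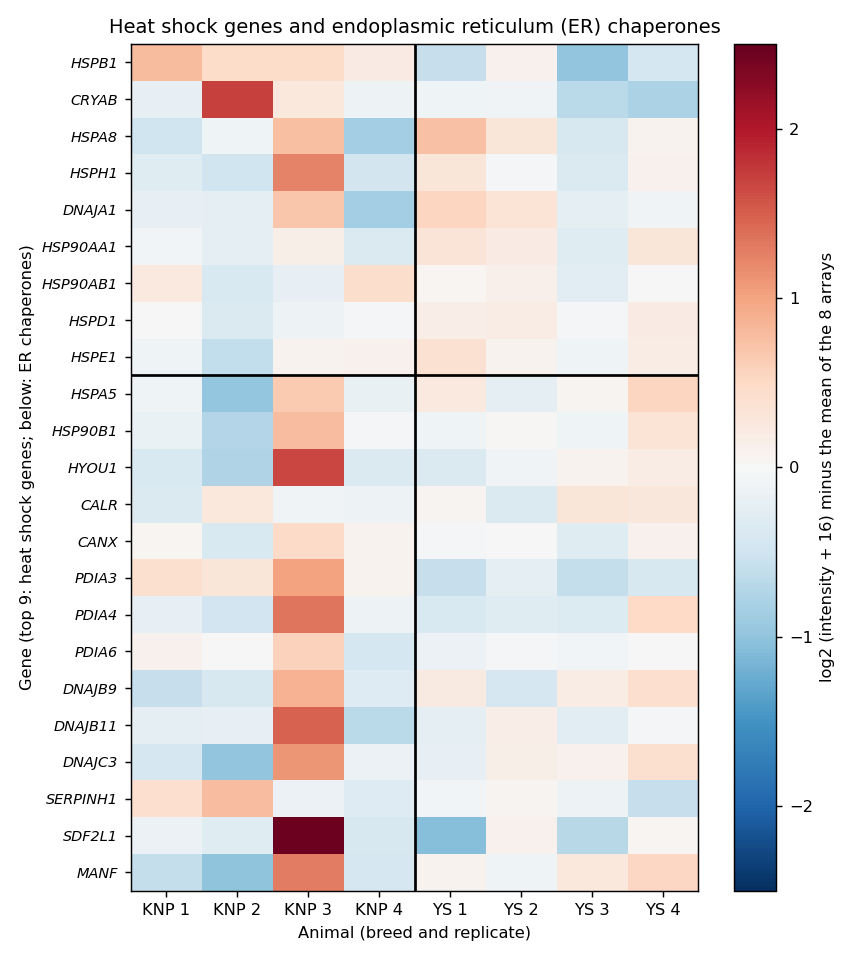
log2(intensity + 16) minus the mean of the 8 arrays (colour) for the 9 heat shock genes above the line and 14 endoplasmic reticulum chaperones below it, by the brightest probe set, with the 4 KNP pigs left and the 4 YS pigs right. KNP replicate 3 is high in HSPA8, HSPH1 and DNAJA1 and highest in 12 of the 14 chaperones below the line, and KNP replicate 2 is highest in CRYAB and lowest in HSPH1, HSP90AB1, HSPD1 and HSPE1.

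Genes were also ranked by how closely they followed the group from pig to pig, as Pearson's r over 8 arrays between a gene's deviations from its breed mean and the mean standardized deviation of the 9 genes. Of 5414 genes ranked, ACAD8, a mitochondrial dehydrogenase of valine breakdown, was the most alike (r = 0.96), followed by TMEM17 (0.95), PDK3, a kinase of pyruvate dehydrogenase (0.94), STX18, a syntaxin of the endoplasmic reticulum (0.93), and MRPL43, a mitochondrial ribosomal protein (0.93). These genes share the arrays with the group, and the values are a description over 8 arrays with no test. ACAD8 read 2138, 1450, 2295 and 1686 in KNP and 2145, 2239, 1372 and 1943 in YS, highest in KNP replicate 3 and lowest in YS replicate 3. Within the group HSP90AA1 followed the mean of the other 8 most closely (r = 0.91), while CRYAB (-0.22) and HSP90AB1 (0.059) did not follow it.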

How the data were processed

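Liver RNA of 8 pigs was hybridized to 1 Affymetrix porcine array each. The values the authors deposited are linear intensity values, 1 for each probe set and array; GCOS 1.3 is named per the submitters' processing notes. No source used here names the signal algorithm. The trimmed mean of each array (percentiles 2 to 98) was 499.8 in the deposited intensity values, equal on all 8 arrays. Of 24123 probe sets, 124 controls were left out, values were taken as log2(intensity + 16), and the lower 40% by mean were dropped. Array medians differed by 0.22 (log2), under a limit of 0.5, so no further scaling was applied. Breed was fitted with limma 3.58.1 (lmFit, eBayes with intensity trend) in R 4.3.3, with Benjamini-Hochberg adjustment over 14399 probe sets. The fit was tested on simulated data with independent noise. Unlike these arrays, the simulated ones held no shift with brightness between the breeds. It recovered 3 of 50 changes of 1.5-fold, 24 of 50 of 2-fold, 46 of 50 of 4-fold and 50 of 50 of 8-fold. It also called 6 unchanged probe sets. For arrays, their number limits the precision. All 9 symbols were found in the pig gene table. A gene's first value is its brightest probe set.

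Named are all 9 genes, the 2 smallest p of each other chaperone list (those past the threshold, where any), the 2 brightest genes of a cell list where its sum bears on a member, and the 5 genes most alike. Members and lists were chosen with earlier results of these data known. Cell lists were hepatocyte, cholangiocyte, smooth muscle and stellate, skeletal muscle, macrophage, endothelium, lymphocyte and red blood cell. Of the last 4, with 6, 6, 4 and 4 genes tested, 0 genes were called, and the median differences were 0.44, 0.14, 0.37 and -0.24. All 6 macrophage and all 4 lymphocyte genes tested had a positive difference, and the part of these cells in HSPB1 was not tested. Settings were changed one at a time: leaving out each animal, averaging a gene's probe sets, blocking on replicate number, weighting arrays, dropping the trend, removing the filter or raising it to 60%, centring on medians, normalizing by quantiles, and adding 1 or 64 before the log.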

Additional observations from a re-analysis of the deposited data

Results flagged for a closer look

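In 3 of 36 sets of 4 animals (each of the 18 probe sets in each breed), 1 pig stood apart from the rest by Dixon's ratio of the gap to the range on the log2 scale above its 95% critical value; chance flags about 1 in 20 such sets. HSPH1 read 2228 in KNP replicate 3 (ratio 0.885), against 658 to 758 in the other KNP pigs and 719 to 1154 in YS. The brightest HSP90AA1 probe set read 10995 in YS replicate 3 (only just past that value), against 15807 to 17032 in the other YS pigs, and 10630 to 15065 in KNP. Its next probe set read 4786 in YS replicate 1 (ratio 0.909), against 6409 to 6598 in the other YS pigs and 3515 to 7175 in KNP, so the probe sets of this gene single out different pigs. CRYAB in KNP replicate 2, at 6398, was not among them.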

How the results depend on the processing

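Under all alternatives 0 of the 9 genes were called, higher or lower. Their median of -0.25 was 0.065 after quantile normalization and -0.00076 for the mean of a gene's probe sets; with each animal left out it lay between -0.34 and -0.099. Among the other chaperones 1 gene, PDIA3, was called higher with array weights (adjusted p = 0.0367) and without KNP replicate 4 (adjusted p = 0.0489), and 0 otherwise; 0 were called lower throughout. The cause was not tested. Of 296 values for the 17 probe sets under the alternatives, 271 kept their direction and 25, none of them called, turned in sign; HSPH1, HSP90AB1 and the dim HSPA8 probe sets account for most. The replicate numbers name different animals (correlations of same-numbered pigs from -0.020 to 0.051, and 0 pigs correlated best with their own number). With a replicate block 0 of the 9 genes were called, 0 higher and 0 lower, with the median at -0.25. Over all probe sets the 149 calls became 8 with the block, 13 with quantile normalization, 13 without the trend, 35 without the filter, 95 with median centring, 65 for gene means, 137 and 157 with a pseudocount of 1 and 64, 163 with the lower 60% left out, 180 with array weights and 8 to 117 with an animal left out. The 5 most alike genes were the same with a pseudocount of 64. A search of promoters for motifs was planned and not run, since no promoter sequences were available for it. With 4 arrays a breed, the interval of a single gene such as HSPA8 (-1.07 to 0.37) holds changes much larger than the one measured.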
